A study of Mus musculus with 4 samples.

Results

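The regions described are distal ATAC-seq peaks of the mouse aorta that hold a MEF2 box but no AP-1 site, called MEF2-only peaks below. In ATAC-seq the transposase Tn5 cuts accessible DNA and tags the ends for sequencing, so that open chromatin is read as peaks. A peak was distal when its edge lay more than 3 kb from every transcription start site (TSS) of the GENCODE vM21 annotation. The 300-bp window around its summit had to hold a MEF2 box of 10 bases and no perfect TPA response element, the 7-base site TGACTCA or TGAGTCA bound by AP-1. Every element of the rule comes from sequence and annotation, and no measured value other than the peak call was used. In the control female list, 713 of 8952 distal peaks met the rule, or 7.96% (95% Wilson interval 7.42 to 8.54), among 20655 peaks on chromosomes 1 to 19. Of the VEDS male list, 1497 of 21638 distal peaks met it, or 6.92% (6.59 to 7.26), among 40483 peaks. The whole series holds 64360 peaks in 4 lists. Intervals cover counting error within 1 list only, since peaks of a library are not replicates.

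The libraries were made from aortic nuclei of control *Col3a1*+/+ mice and of mice with vascular Ehlers-Danlos syndrome (VEDS, *Col3a1* G938D/+) at P60. VEDS is caused by mutation of the gene for type III collagen, and the VEDS mice carry 1 glycine substitution in 1 allele. Each genotype is represented by 1 library per sex, which pools tissue of 2 mice, and no group has a replicate. The 2 long lists differ in genotype, sex and depth at the same time, so these cannot be told apart, and no value was compared between lists. Where a pair of values stands without list names, the control female value comes first.

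MEF2 proteins are MADS-box transcription factors that bind an AT-rich box as dimers. MEF2A, MEF2C and MEF2D are present in vascular smooth muscle, where class IIa histone deacetylases bind and repress them. Calcium/calmodulin-dependent kinase signaling relieves that repression, and p38 and ERK5 signaling also activates MEF2 proteins. AP-1 is formed by JUN and FOS proteins and responds to stress and growth signals. The MEF2 box searched here reads pyrimidine, T, A, 4 bases that are each A or T, then T, A and purine, and its pattern is its own reverse complement. A match is a description of the sequence, and binding of MEF2 was not measured.

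Depth was low in all 4 lists. The median number of fragments at a peak summit was 14 in the control female list and 22 in the VEDS male list. It was 7 in the control male list of 1236 peaks and 6 in the VEDS female list of 504. Of 23 smooth muscle contractile genes on chromosomes 1 to 19, 20 had a peak within 3 kb of a TSS in the control female list and all 23 in the VEDS male list, and none had one in either short list. Immune genes had such a peak at 0 and 1 of 10 genes in the long lists. Endothelial genes had one at 1 of 15 in the control female list and 8 of 15 in the VEDS male list, and adipocyte genes at 1 and 4 of 8. Fibroblast genes had one at 6 and 5 of 12, and striated muscle genes at 2 and 4 of 18. For glial and neuronal genes it was 1 of 7 in each. In a pooled library, fewer cells of a type, less open chromatin per cell and lower depth cannot be told apart. The part of these differences in the results below was not tested.

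Sequences of 12 sites are shown because each lies in a MEF2-only peak of both long lists near a gene of smooth muscle, matrix or MEF2 biology or, for *Myh7*, of striated muscle. They were read from the RefSeq assembly GRCm38.p6, the same build as mm10, on its plus strand, with 25 bases on each side of the box. Capitals mark the MEF2 boxes that lie in a summit window.
Col4a1 (chr8:11183811-11183870): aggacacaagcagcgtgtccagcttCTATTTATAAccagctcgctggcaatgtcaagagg
Vcan (chr13:89653173-89653232): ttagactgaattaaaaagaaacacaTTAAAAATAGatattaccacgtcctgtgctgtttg
Kcna5 (chr6:126508972-126509031): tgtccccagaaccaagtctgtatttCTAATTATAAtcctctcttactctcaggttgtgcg
Cacnb2 (chr2:14641193-14641252): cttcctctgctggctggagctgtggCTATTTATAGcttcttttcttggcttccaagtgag
Kcnma1 (chr14:23627076-23627135): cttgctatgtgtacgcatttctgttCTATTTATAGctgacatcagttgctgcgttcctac
Mylk (chr16:34944918-34944977): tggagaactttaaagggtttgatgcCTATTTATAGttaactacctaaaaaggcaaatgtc
Itpr1 (chr6:108325967-108326026): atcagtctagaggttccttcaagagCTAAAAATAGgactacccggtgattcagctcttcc
Rbpms2 (chr9:65646212-65646271): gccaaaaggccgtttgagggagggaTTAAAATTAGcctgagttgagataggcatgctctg
Cald1 (chr6:34610678-34610737): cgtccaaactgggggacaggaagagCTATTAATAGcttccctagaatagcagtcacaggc
Des (chr1:75347394-75347453): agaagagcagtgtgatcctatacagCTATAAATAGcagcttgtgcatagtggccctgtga
Camk2g (chr14:20786879-20786938): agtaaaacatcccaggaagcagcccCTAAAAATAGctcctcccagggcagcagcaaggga
Myh7 (chr14:55004088-55004147): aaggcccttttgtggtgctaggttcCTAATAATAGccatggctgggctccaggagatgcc

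Whole 300-bp windows are shown for 3 peaks, chosen after their values were seen, to set the box in the sequence around its summit, which lies at the middle of each window. *Mtus2* is among the highest MEF2-only peaks of the VEDS male list, *Gadd45b* holds a pair of boxes, and *Mfhas1* also has a peak in both short lists. The *Mfhas1* window is centered on the control female summit and the other 2 on the VEDS male summit.
Mtus2 (chr5:148272112-148272411): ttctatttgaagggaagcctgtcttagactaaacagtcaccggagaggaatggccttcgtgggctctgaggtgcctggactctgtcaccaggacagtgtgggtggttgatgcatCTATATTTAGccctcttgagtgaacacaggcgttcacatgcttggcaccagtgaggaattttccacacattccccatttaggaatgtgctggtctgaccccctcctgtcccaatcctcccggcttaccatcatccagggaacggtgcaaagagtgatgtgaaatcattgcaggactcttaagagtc
Gadd45b (chr10:80940579-80940878): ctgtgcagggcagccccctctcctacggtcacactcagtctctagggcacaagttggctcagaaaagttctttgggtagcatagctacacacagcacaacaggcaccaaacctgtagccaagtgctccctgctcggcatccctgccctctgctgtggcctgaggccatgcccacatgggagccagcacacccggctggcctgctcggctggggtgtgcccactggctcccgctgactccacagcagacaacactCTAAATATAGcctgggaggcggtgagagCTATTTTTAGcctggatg
Mfhas1 (chr8:35662335-35662634): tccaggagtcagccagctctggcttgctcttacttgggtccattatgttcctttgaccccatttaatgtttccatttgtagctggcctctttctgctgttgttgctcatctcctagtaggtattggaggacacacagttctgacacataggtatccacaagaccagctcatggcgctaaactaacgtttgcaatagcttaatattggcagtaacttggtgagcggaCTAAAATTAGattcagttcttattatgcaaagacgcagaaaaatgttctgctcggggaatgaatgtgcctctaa

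The boxes of MEF2-only peaks were not an even draw from the forms that the pattern allows. Read on either strand, the 8 central bases of the box take 10 forms, and TAAAAATA made up 43.4% of the 772 boxes in the control female list and 43.6% of the 1589 in the VEDS male list. The same form made up 14.7% of the MEF2 boxes in the unmasked sequence of chromosomes 1 to 19. Per base, it was 7.04 times as dense in distal windows without a TPA response element as in that sequence in the control female list (95% Poisson interval 6.30 to 7.83) and 5.79 times in the VEDS male list (5.37 to 6.24). The *Itpr1* and *Camk2g* sites carry this form, and the *Vcan* site carries it with a T at its start.

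TATAAATA came next, at 2.64 times (2.18 to 3.16) and 2.30 times (2.03 to 2.60) the genome density. It is the form of the *Col4a1*, *Cacnb2*, *Kcnma1* and *Mylk* sites, where it reads TATTTATA on the plus strand, and of the *Des* site. At the other end, TATATATA had ratios of 0.526 (0.240 to 0.998) and 0.580 (0.376 to 0.857). TAATATTA had a ratio of 0.970 (0.565 to 1.55) in the control female list and 0.431 (0.260 to 0.673) in the VEDS male list. The same pattern of the box thus covered forms above, near and below their density in the genome.

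The bases at the ends of the box also differed. Boxes that begin with C and end with G were 5.26 times (4.68 to 5.89) as dense as in the genome in the control female list and 4.19 times (3.86 to 4.55) in the VEDS male list. Boxes with T and A at their ends had ratios of 1.33 (1.11 to 1.57) and 1.09 (0.970 to 1.23), and those with C or G at 1 end only lay between. The GC content of the windows was not matched to that of the genome, and its part in the ratios by end was not tested. Among the T and A boxes, the 1 form TTAAAAATAA held 77 of 137 in the control female list and 151 of 284 in the VEDS male list, with ratios of 7.33 (5.79 to 9.16) and 5.72 (4.84 to 6.71). The highest ratio of the 36 forms of all 10 bases was that of CTAAAAATAG, at 8.82 (7.12 to 10.8) and 7.51 (6.50 to 8.63).

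**Figure D1:**
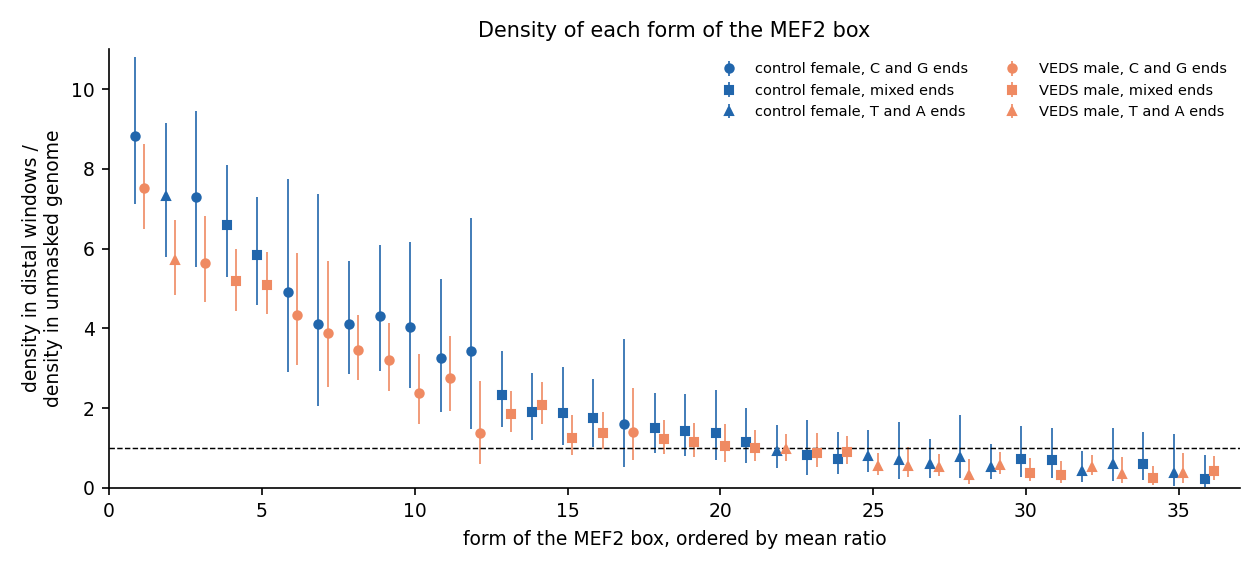
The x axis orders the 36 forms of the MEF2 box, a form and its reverse complement counted as 1, by the mean of their ratios in both lists, and the y axis gives the density in distal windows without a TPA response element divided by that in the unmasked genome, with 95% Poisson intervals. Circles, squares and triangles mark forms with C and G, mixed, and T and A ends. The first form sits at 8.82 in the control female list and 7.51 in the VEDS male list, and the last at 0.231 and 0.414.

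All forms together, the MEF2 box was 2.38 times (2.22 to 2.56) as dense in these windows as in the unmasked genome in the control female list and 1.95 times (1.85 to 2.05) in the VEDS male list. Base composition was compared through a swapped box, in which TA is exchanged for AT at both ends, so that the same bases occur in another order. The swapped box was less dense than in the genome in both lists, with ratios of 0.614 (0.537 to 0.699) and 0.509 (0.464 to 0.557). MEF2-only windows had a median GC content of 45.7% in both lists, below that of distal windows with neither a MEF2 box nor a TPA response element, which was 50.3% in the control female list, and near the 44.3% of windows with the swapped box in each list.

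A larger share of MEF2 boxes than of swapped boxes lay near the summit. In the control female list, 43.7% of 772 boxes (40.2 to 47.2) were centered within 50 bp of the summit, against 28.9% of 194 swapped boxes (22.9 to 35.6), a difference of 14.8 percentage points (95% Newcombe interval 7.21 to 21.7). The VEDS male shares were 45.0% of 1589 boxes (42.6 to 47.5) and 23.3% of 417, a difference of 21.7 points (16.8 to 26.3). In 200-bp windows the control female difference was 7.50 points and its interval held 0 (−2.04 to 17.0), while that of the VEDS male list was 15.6 (8.60 to 22.4). An even spread over the 300-bp window would give 34.7%. The MEF2 box was above it in each list and the swapped box below it in the VEDS male list, while the interval of the control female swapped box held it. At the printed sites, the box of *Cacnb2* was centered 1 bp and that of *Myh7* 12 bp from the summit of the higher-ranked peak, while that of *Kcna5* was 75 bp and those of *Camk2g* and *Col4a1* over 100 bp away.

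**Figure D2:**
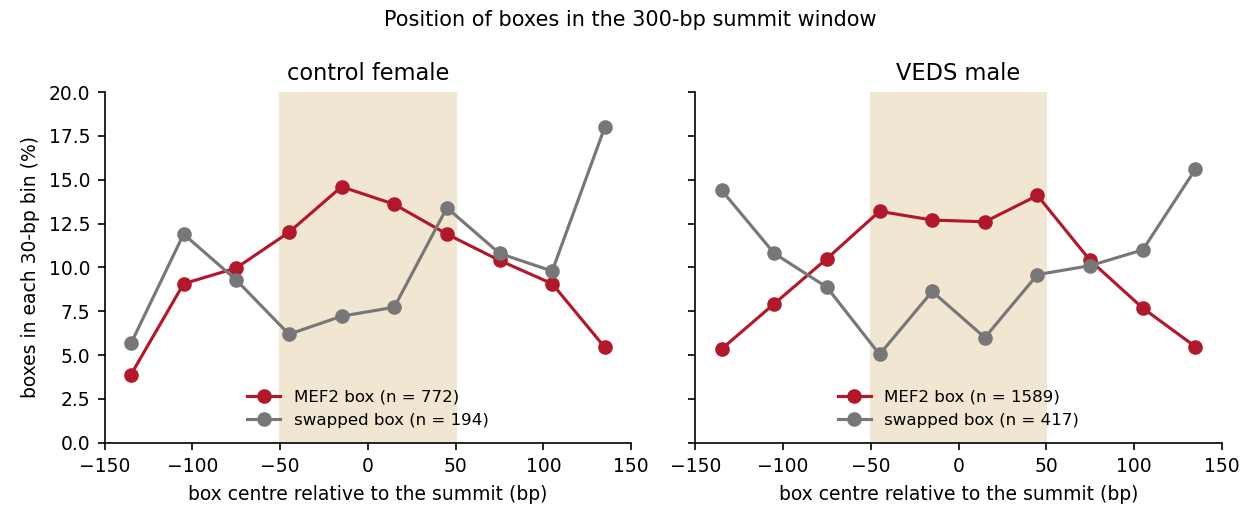
The x axis gives the center of a box relative to the peak summit in bp and the y axis the percentage of boxes of its kind in each 30-bp bin, for MEF2 boxes in MEF2-only peaks and swapped boxes in distal peaks without a MEF2 box or TPA response element. The shaded band marks 50 bp on either side of the summit, which held 43.7% and 45.0% of MEF2 boxes and 28.9% and 23.3% of swapped boxes in the control female and VEDS male lists.

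Most MEF2-only peaks held 1 box. There were 2 boxes in 51 windows of the control female and 80 of the VEDS male list, and 3 boxes in 4 and 6. At least 1 box lay inside the called peak itself in 84.2% (81.3 to 86.6) of the control female and 83.8% (81.9 to 85.6) of the VEDS male peaks, and in the rest it lay in the window but outside the edges of the peak. A perfect TPA response element occurred elsewhere in the peak, outside the window, in 13 control female (1.82%) and 44 VEDS male peaks (2.94%). Of all distal windows with a MEF2 box, 125 of 838 in the control female list and 264 of 1761 in the VEDS male list also held a TPA response element and were left out by the rule.

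The distance rule set aside a further 266 control female and 522 VEDS male peaks with a box and no TPA response element within 3 kb of a TSS. The nearest peaks outside the limit lay 3008 bp from a TSS in the control female list, at *Lmna*, the gene for lamin A/C, and 3032 bp from one in the VEDS male list. The farthest inside it lay at 2980 and 2993 bp, the latter at *Ralgapb*.

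MEF2-only peaks were ordinary in height. The median number of fragments at the summit was 11 in the control female list, with quartiles of 8 and 14, the same median as for distal peaks with neither sequence and below the 12 of those with a TPA response element. In the VEDS male list it was 18 (order-statistic interval 18 to 19), with quartiles of 13 and 27, against 17 with neither sequence and 20 with a TPA response element. The median fold enrichment, the pileup at the summit divided by that of its surroundings, was 6.18 and 6.21. Their median width was 220 bp (213 to 231) in the control female list, against 225 bp with neither sequence (221 to 229). In the VEDS male list it was 270 bp (259 to 281), wider than the 246 bp (243 to 249) of those with neither sequence.

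Distal peaks were split into 5 equal groups by rank within each list, and the share of MEF2-only peaks was not largest in the highest group of either. In the VEDS male list it was largest in the second group, at 7.70%, and smallest in the lowest. In the control female list the share of MEF2-only peaks was 6.25% (5.22 to 7.47) in the highest group, 9.33% (8.07 to 10.8) in the middle group and 7.15% (6.04 to 8.43) in the lowest. The VEDS male share was 7.37% (6.63 to 8.19) in the highest group, 7.12% (6.39 to 7.92) in the middle group and 5.27% (4.64 to 5.97) in the lowest. Distal peaks with a TPA response element fell from 23.6% to 14.1% of the control female groups and from 21.2% to 10.6% of the VEDS male groups.

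Joined across both lists, the peaks formed 1641 MEF2-only regions. Of these, 568 (34.6%) met the rule in both lists, and 566 of the 568 shared a box at the same position. A further 842 (51.3%) met it in the VEDS male list and had no control female peak, and 50 (3.05%) met it in the control female list and had no VEDS male peak. The other 181 overlapped a peak of the other list that did not meet the rule, in 149 cases because the box lay outside the window of that peak. The VEDS male list is the longer and deeper one, and a region without a peak in the other list was not taken as closed.

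MEF2-only peaks of the VEDS male list overlapped a control female peak more often than distal peaks with neither sequence did. The shares were 43.8% (41.3 to 46.3) and 34.9%, a difference of 8.90 points (6.30 to 11.5). MEF2-only peaks of this list were also the wider ones, with medians of 270 and 246 bp, and the part of width in the overlap was not tested. Within rank groups the difference remained above 0 in the 3 middle groups, at 8.08 (2.45 to 13.5), 5.69 (0.534 to 11.3) and 6.84 points (2.62 to 11.8). Against peaks with the swapped box, 39.5% of which overlapped, the difference was 4.24 points and its interval held 0 (−1.39 to 9.69). When both lists were limited to peaks with −log10 q no lower than 10 it was −2.47 points (−5.45 to 0.814). In the control female list 93.0% (90.9 to 94.6) overlapped a VEDS male peak, against 91.5% with neither sequence, a difference of 1.45 points (−0.764 to 3.24).

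**Figure D3:**
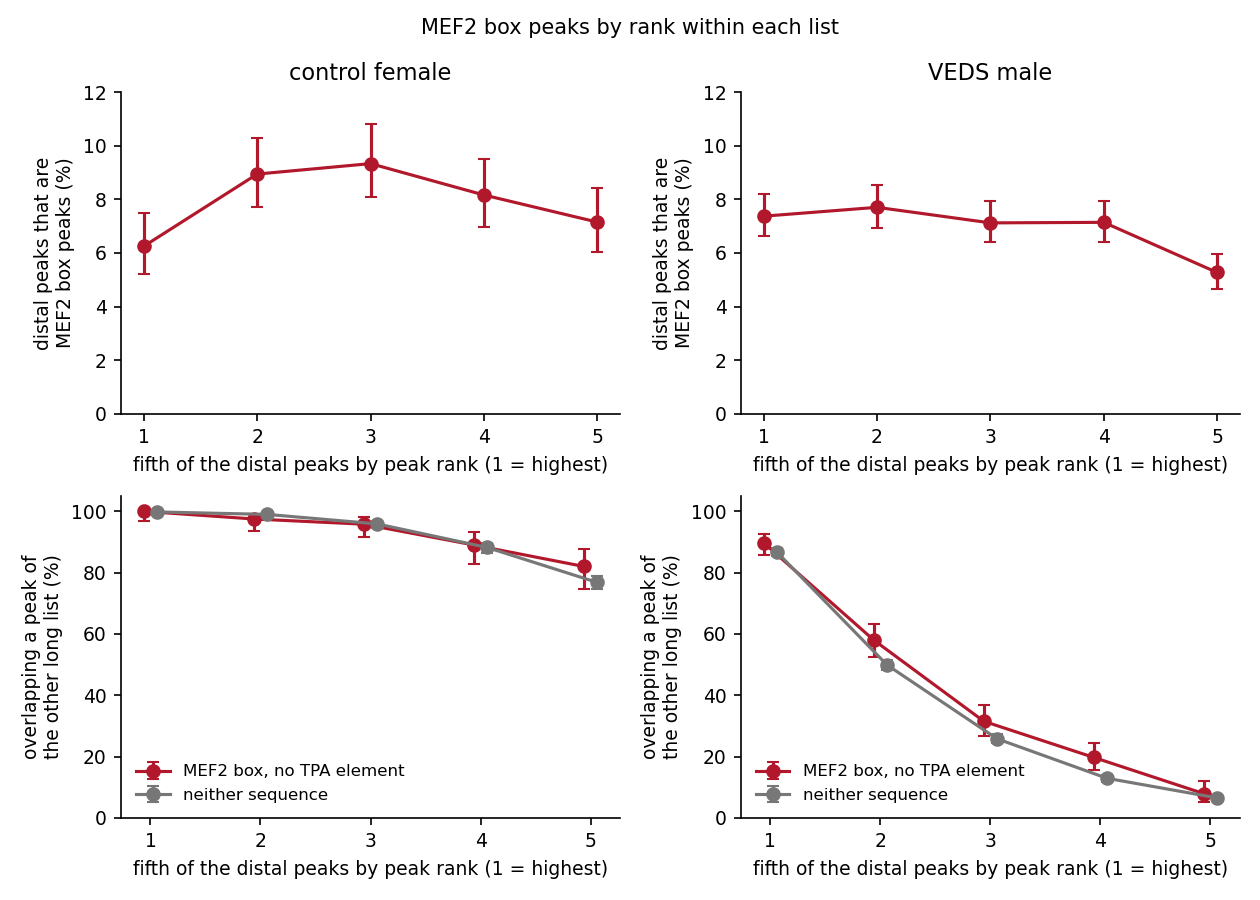
The x axis gives 5 equal groups of distal peaks by rank within each list, 1 being the highest. The upper panels show the percentage that are MEF2-only peaks, between 6.25% and 9.33% in the control female list and between 5.27% and 7.70% in the VEDS male one, and the lower panels the percentage that overlap a peak of the other long list for MEF2-only peaks and for distal peaks with neither sequence, with 95% Wilson intervals. In the VEDS male list both curves fall, from 89.7% to 7.89% for MEF2-only peaks and from 86.7% to 6.51% for the others.

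MEF2-only peaks lay in introns more often than distal peaks with neither sequence. Intronic summits made up 58.8% (55.1 to 62.3) of those in the control female list and 59.1% (56.6 to 61.6) of those in the VEDS male list, against 51.6% and 53.4% with neither sequence, differences of 7.18 (3.33 to 10.9) and 5.72 points (3.10 to 8.30). With C and G ends only, the control female difference was 5.67 points and its interval held 0 (−0.193 to 11.3). Against the swapped box the intron share was higher by 12 points in the control female list (3.67 to 20.1), and the VEDS male difference of 5.35 points had an interval that held 0 (−0.242 to 11). First introns held 31.7% and 30.7% of MEF2-only peaks against 24.4% and 25.6% with neither sequence, differences of 7.29 (3.82 to 10.9) and 5.02 points (2.64 to 7.49). The shares in other introns, 27.1% and 28.5%, differed by −0.115 (−3.43 to 3.43) and 0.699 points (−1.63 to 3.13). The first-intron share was also higher than with a TPA response element, by 7.16 (3.23 to 11.2) and 3.93 points (1.19 to 6.73), and than with the swapped box, by 10.6 (3.16 to 17.1) and 5.93 points (0.770 to 10.7). Sites of *Cald1*, *Rbpms2*, *Camk2g* and *Kcnma1* are examples in first introns.

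Intergenic summits made up 38.6% and 38.3% of MEF2-only peaks. Over all MEF2-only peaks the median distance to the nearest protein-coding TSS was 28321 bp (25444 to 32932) in the control female list and 29401 bp (27310 to 32900) in the VEDS male list. Distal peaks with neither sequence had medians of 25228 bp (24290 to 26379) and 24419 bp (23731 to 24983). Exons of coding genes held 13 control female and 31 VEDS male summits.

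Sequences of 18 other factors were searched on both strands of the same windows, and none was set apart in MEF2-only peaks when the swapped box was the comparison. The SRF CArG box, bound by the other MADS-box factor of smooth muscle, was found in 4.49% and 4.41% of MEF2-only windows of the control female and VEDS male lists, against 4.09% and 5.11% of swapped-box windows, differences of 0.395 (−3.92 to 3.14) and −0.699 points (−3.58 to 1.46). The TEAD sequence GGAATG, bound by partners of YAP and TAZ, was present in 24.7% and 23.1% against 24.6% and 25.3%. The steroid receptor element was rare, in 14 control female (1.96%) and 16 VEDS male windows (1.07%), against 1.17% and 0.806% of swapped-box windows. Over the 18 sequences, 0 had an interval that left out 0 in either list at 99.7% confidence, the level that allows for 18 sequences. With only 171 and 372 swapped-box windows these intervals were wide. That of NFI ran from −13.3 to 10.1 points in the control female list, so differences of that size could be missed. At 95%, 0 did in the control female list and 1 in the VEDS male list, the SOX sequence CATTGTT, at 5.08% against 8.60%.

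Against all distal peaks with neither sequence, whose GC content is higher, 3 sequences differed in the VEDS male list at the stricter confidence. The E-box CACCTG was in 10.6% of MEF2-only windows against 15.1%, a difference of −4.50 points (−6.06 to −2.75 at 95%), and the ETS sequence, CAGGAAG or CCGGAAG, was in 12.6%, a difference of −3.41 points (−5.09 to −1.55). The C/EBP sequence TTGCNNAA was in 17.8% against 14.6% (3.17, 1.23 to 5.25), and 20 of its 300 matches overlapped a MEF2 box. None differed at that confidence in the control female list, where 2 did at 95%, the ETS sequence and the SMAD palindrome GTCTAGAC. At 95%, 8 of the 18 differed in the VEDS male list. The commonest sequences in MEF2-only windows were the NFI sequence TTGGCA, in 31.3% of the control female and 28.5% of the VEDS male windows, then TEAD and MEIS, TGACAG, in 19.4% and 20.1%, and the E-box CAGCTG, in 18.4% and 20.5%. They were about as common in windows with neither sequence, where NFI was in 31.9% and 30.2% and TEAD in 24.5% and 22.6%. MEIS was in 19.6% and 19.4% of those windows and CAGCTG in 21.1% and 21.8%. Each of these differences had a 95% interval that held 0. The remaining ones searched were TGTGGT for RUNX, AGATAA for the GATA factors, CCACNCCC for KLF, TGACGTCA for the CRE, TGTTTAC for forkhead factors, CTTTGAT for TCF/LEF and TTTTCCA for NFAT. A TPA response element with 1 mismatch was present in 64.9% and 62.5% of MEF2-only windows, against 65.5% and 64.0% of swapped-box windows, with intervals of the difference that held 0 (−8.17 to 7.58 and −6.78 to 4.10 points). Of windows with neither sequence, 60.5% and 59.5% held one. These differences left out 0, at 4.43 (0.667 to 8.05) and 3.05 points (0.459 to 5.58).

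Each distal peak was assigned to the protein-coding gene with the nearest TSS, at any distance, and the counts by gene list below use this assignment. Of 4103 genes with a distal peak in the control female list, 617 (15.0%) had at least 1 MEF2-only peak, and of 7033 in the VEDS male list, 1193 (17.0%) had one. The gene lists below are read against the share of distal peaks that were MEF2-only at all other genes, which was 7.94% in the control female list and 6.90% in the VEDS male list for the contractile genes. Among the gene lists with at least 20 distal peaks, of which there were 7 for the control female and 8 for the VEDS male list, the interval of the difference held 0 in each. With the box limited to forms with C and G ends it left out 0 for the known MEF2 targets in both, at 3 of 24 (12.5%, a difference of 9.27 points, 1.11 to 27.8) and 5 of 52 peaks (9.62%, 6.92 points, 1.48 to 17.9). It also left out 0 in the control female list for contractile genes (4.72 points, 0.203 to 14.1) and for calcium and channel genes (4.98, 0.319 to 14.6), and in the VEDS male list for the regulators of MEF2, SRF and myocardin (3.73, 0.444 to 9.98). All of these intervals are at 95%, with no allowance for the number of lists or settings. The lists are not independent, since *Des* is also a contractile gene and *Hdac9* also a regulator.

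**Figure D4:**
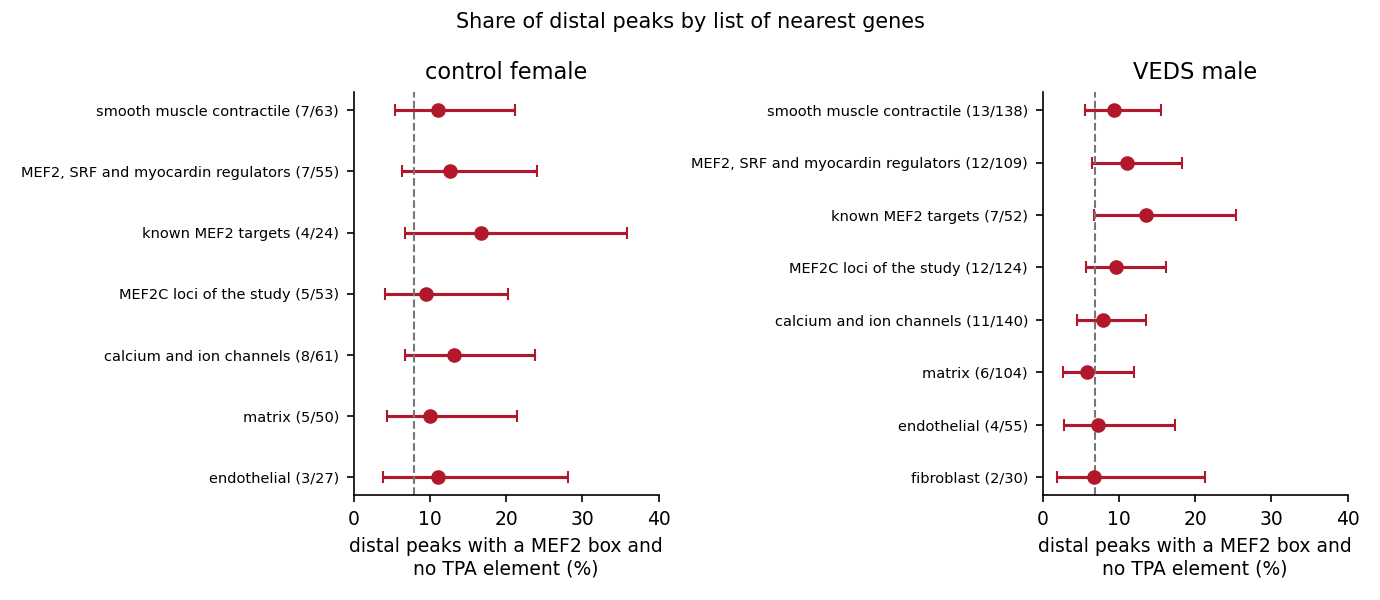
The x axis gives the percentage of distal peaks nearest to the genes of a list that are MEF2-only, with 95% Wilson intervals, for lists with at least 20 distal peaks, and the numbers beside each list give MEF2-only peaks over all its distal peaks. The dashed line is the share over all distal peaks of the list, 7.96% in the control female list and 6.92% in the VEDS male panel, and every interval reaches it.

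Smooth muscle contractile genes had MEF2-only peaks at 6 genes in the control female list and 8 in the VEDS male list, of 15 and 17 genes with a distal peak. By peaks, 7 of 63 (11.1%) were MEF2-only in the former and 13 (9.42%) in the latter, differences from other genes of 3.17 (−2.48 to 13.3) and 2.52 points (−1.33 to 8.56). *Cald1*, *Des*, *Itga8*, *Mylk* and *Rbpms2* were among those with one in both lists, and *Rbpms* and *Synpo2* in the VEDS male list. *Acta2* and *Myh11*, which encode smooth muscle actin and myosin heavy chain, had distal peaks in both lists but none that was MEF2-only.

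The *Mylk* peak, in an intron of the gene for myosin light chain kinase, lies at chr16:34944655-34945104, 8168 bp upstream of the nearest TSS. It had 16 fragments at its summit in the control female list and 36 in the VEDS male list, with fold enrichments of 7.65 and 6.90. The *Des* peak, at chr1:75347371-75347646 and 12848 bp upstream of the gene for the intermediate filament protein desmin, had 14 and 52 fragments. The first-intron peak of *Cald1*, which encodes the actin-binding protein caldesmon, at chr6:34610357-34610797, had 13 and 34. None of these peaks had a counterpart in the control male or VEDS female list.

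*Itga8*, the integrin alpha 8 gene, had 4 regions over the gene and its flank, of which 1 met the rule in both lists with 9 and 17 fragments, each below the median of its list. The first-intron peak of *Rbpms2*, an RNA-binding protein gene of smooth muscle, had 12 and 36 fragments.

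Genes of MEF2, SRF, myocardin-related factors and their regulators had MEF2-only peaks themselves, at 7 of 55 distal peaks (12.7%) in the control female list and 12 of 109 in the VEDS male list. The differences from other genes were 4.79 (−1.66 to 16.1) and 4.11 points (−0.500 to 11.4). *Mef2c* had a peak in both lists at chr13:83603628-83604263, with 8 fragments in the control female list and 33 in the VEDS male list. *Mef2d* had one in its first intron, at chr3:88150058-88150388, with 9 and 29. The box nearest the summit read CTAAAAATAG on the plus strand in each of the 2 peaks, the form with the highest ratio.

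*Hdac9* and *Hdac7*, which encode class IIa deacetylases that bind MEF2 proteins, were covered to different degrees. *Hdac9* had 1 region in both lists, with 6 and 16 fragments, and 1 in the VEDS male list alone with 11. The *Hdac7* region met the rule in the control female list, with 21 fragments, and was overlapped by a VEDS male peak of 59 fragments that did not meet it. *Camk2g*, which encodes a calcium/calmodulin-dependent kinase subunit, had a first-intron peak in both lists with 13 and 35 fragments. *Camk2d* had 2 regions in the VEDS male list alone, with 24 and 12. *Mrtfa*, which encodes a coactivator of SRF, had 1 in both, with 7 and 18. Genes listed as known MEF2 targets had 4 of 24 (16.7%) and 7 of 52 (13.5%) MEF2-only peaks, at *Des*, *Hdac9*, *Jun* and *Myom1* in both lists, with differences of 8.73 (−1.28 to 27.9) and 6.56 points (−0.235 to 18.4). Within 100 kb of its TSS, *Jun* had a MEF2-only region in the VEDS male list only.

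Calcium and ion channel genes of smooth muscle had 8 of 61 (13.1%) and 11 of 140 (7.86%) MEF2-only peaks, differences of 5.19 (−1.16 to 15.9) and 0.945 points (−2.49 to 6.62). *Itpr1*, the inositol trisphosphate receptor that releases calcium from stores, had 3 regions, of which 2 were in both lists with 15 and 9 fragments in the control female list and 32 each in the VEDS male list. *Kcnma1*, the pore of the large-conductance calcium-activated potassium channel, had 2 first-intron regions in both lists, with 14 and 9 fragments in the control female list and 41 and 30 in the VEDS male list. Both of its boxes read CTATTTATAG. The *Kcna5* region, 26485 bp downstream of the TSS of a voltage-gated potassium channel gene, had 17 and 57, and the *Cacnb2* region, in the gene of a calcium channel subunit, had 15 and 37.

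Matrix genes had 5 of 50 (10.0%) and 6 of 104 (5.77%) MEF2-only peaks, differences of 2.05 (−3.64 to 13.4) and −1.15 points (−4.27 to 5.10). The *Col4a1* region, intergenic at chr8:11183411-11184053 near this basement membrane collagen gene, was the highest of the list genes by rank, with 30 fragments in the control female list and 75 in the VEDS male list. *Vcan*, the versican gene, had a region 24890 bp downstream of a TSS with 20 and 30. *Lox*, which encodes the enzyme that starts collagen and elastin cross-linking, had one with 10 and 22, and *Col1a1* one with 9 and 27. *Col3a1*, the gene mutated in the VEDS mice, *Eln*, *Fn1* and *Col5a2* had distal peaks in both lists but none that was MEF2-only.

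Of the 14 genes that the study names beside MEF2C sites, 13 lie on chromosomes 1 to 19. Of these, 5 had a MEF2-only peak in the control female list and 8 in the VEDS male list. The study names *Hes1*, *Jag1*, *Rock1*, *Itga8* and *Rbpms2* for control aorta and the others for VEDS aorta, and the 2 sets are pooled here. These genes were chosen on these samples, so their counts are not independent evidence. By peaks they were 5 of 53 (9.43%) and 12 of 124 (9.68%), differences of 1.48 (−3.89 to 12.3) and 2.77 points (−1.29 to 9.26). *Gadd45b*, which encodes a stress-induced activator of p38 signaling, had its region 9917 bp downstream of the TSS, with 27 fragments in the control female, 75 in the VEDS male and 8 in the VEDS female list. Its window held a pair of boxes. *Svil*, the supervillin gene, had a first-intron region with 12 and 23, while *Gsn* and *Jag1* had one in the VEDS male list alone, with 41 and 13.

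Marker genes of other cell types also held some of these peaks. Endothelial genes had 3 of 27 (11.1%) and 4 of 55 (7.27%), at *Erg* and *Flt1*, with differences of 3.16 (−4.13 to 20.1) and 0.355 points (−4.07 to 10.3). *Erg*, an endothelial ETS factor gene, had 2 regions in both lists with 8 and 7 fragments in the control female list and 25 and 23 in the VEDS male list. Among striated muscle genes *Myh7*, the slow myosin heavy chain gene, had the only one, of 1 and 6 distal peaks, 9480 bp upstream of its TSS with 10 and 33 fragments. Fibroblast genes had 2 of 17 and 2 of 30, at genes that are also in the matrix list. Immune genes had 1 of 2 and 1 of 5, nearest to *Ptprc* but over 100 kb from its TSS, and adipocyte genes 1 of 4 and 1 of 5, at *Cidea*. Glial and neuronal genes had no distal peak in the control female list and 1 of 6 that was MEF2-only in the VEDS male list, at *Rbfox3*. Steroid receptor genes had 1 of 7 distal peaks in the control female list, at *Esr1* with 5 fragments, and 2 of 11 in the VEDS male list, both at *Pgr*.

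**Figure D5:**
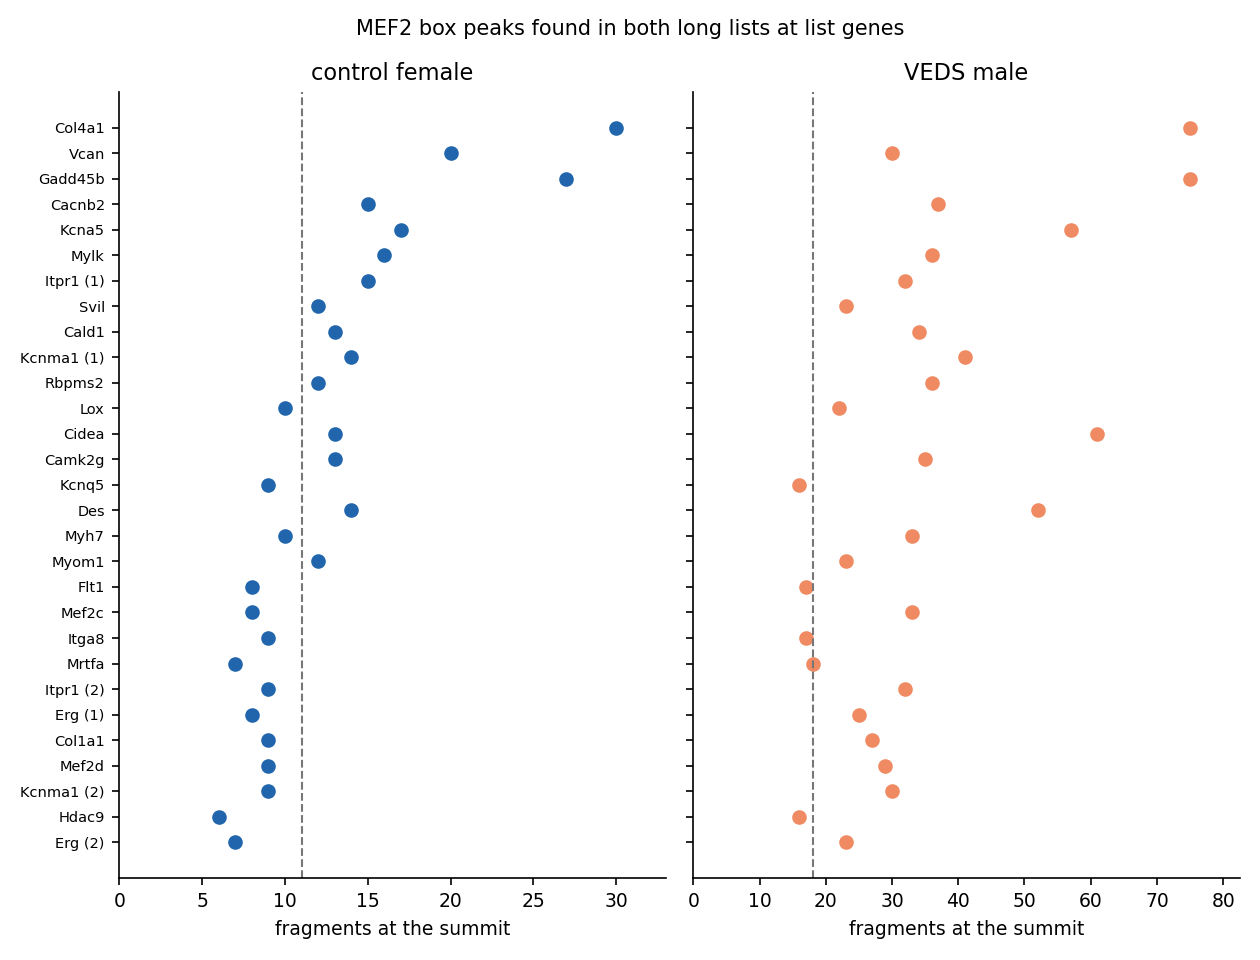
The x axis gives the fragments at the summit in the control female (left) and VEDS male list (right) for 29 regions near 26 list genes that are MEF2-only in both lists (regions not reported here are left out), ordered by rank in the control female list. The dashed line is the median of all MEF2-only peaks of that list, 11 and 18. Values run from 6 to 30 and from 16 to 75, with 15 of 29 above the line in the control female list and 24 in the VEDS male panel, and the scales of the panels are not comparable.

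The 1641 regions were spread over 1283 genes, of which 1023 had 1 and 260 more than 1. *Kalrn*, which encodes a guanine nucleotide exchange factor, and *Lpp*, which encodes a LIM protein of focal adhesions, had 7 each. In the control female list 3 of 11 distal peaks at *Kalrn* and 3 of 18 at *Lpp* were MEF2-only, and in the VEDS male list 7 of 36 and 6 of 37. The highest of the *Kalrn* regions, in an intron at chr16:34352667-34353153, had 84 fragments in the VEDS male list, 30 in an overlapping control female peak that did not meet the rule and 10 in a control male peak.

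The other genes among the 10 with the most regions had 5 each. *Samd4*, which encodes an RNA-binding translational repressor, had 1 of 6 and 4 of 17 distal peaks. *Sema5a*, a semaphorin gene, had 2 of 4 and 5 of 13. *Zfp36l1*, which encodes an mRNA decay factor, had 3 of 11 and 5 of 26, with regions 111009 to 353318 bp downstream of its TSS, the farthest in an intron of *Rad51b*. *Elmo1*, *Zbtb20*, *Tbl1xr1*, *Setbp1* and *Cog6* complete the 10. At *Cog6*, 4 of 14 and 5 of 22 were MEF2-only, 4 of them in both lists. Over all distal peaks the MEF2-only share was 7.96% and 6.92%, and since these 10 genes were chosen by their number of regions, their counts were not tested against it.

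The highest MEF2-only peak of the control female list lay in the first intron of *Rassf8*, with 40 fragments, 14.1-fold enrichment and rank 532 of 21176. In the VEDS male list the same region had 91 fragments and rank 970 of 41444. The next peaks of the control female list were nearest to *Pkdcc*, *Auh*, *Adtrp* and *Irs2*, the gene of an insulin receptor substrate, with 39, 32, 26 and 33 fragments, and lay 70713 to 361787 bp from the TSS.

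The highest of the VEDS male list, nearest to the gene model *Gm10282*, had 93 fragments and rank 875, and 25 fragments in the control female list. *Rassf8* came next, followed by first-intron peaks of *Inpp5a*, an inositol phosphate phosphatase gene, and *Mtus2*, with 89 and 80 fragments, and 30 and 29 in the control female list. The fifth, at *Pofut2*, had 97 fragments and overlapped a control female peak of 36 that did not meet the rule. Every one of the 9 regions that were highest in either list thus had a peak in the other. This was common at that height. In the highest rank group, 99.8% of control female and 86.7% of VEDS male distal peaks with neither sequence also overlapped a peak of the other list.

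In the short lists 28 of the 1641 regions (1.71%) overlapped a peak, 18 in the control male list and 14 in the VEDS female list, with 4 in both. Of the 28, 17 had at most 50% of their windows masked as repeats. The highest of these lay near *Asprv1* (7 fragments in the VEDS female list), *Zfp608* (6 in the control male), *Kalrn* (10 in the control male), *Irs2* (8 in the VEDS female) and *Gadd45b* (8 in the VEDS female). *Mfhas1* was the only 1 of the 17 with a peak in both, at 10 and 7 fragments. Within the short lists themselves, 47 of 754 control male and 12 of 205 VEDS female distal peaks met the rule, and 46 of the 47 control male peaks had over 50% of their window masked. No share over all distal peaks is given for this overlap or masking, so neither was read as a trait of MEF2-only peaks.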

How the data were processed

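Nuclei of P60 aortas were profiled with a droplet single-nucleus ATAC workflow, and each library was analyzed as a whole, without separating nuclei. The authors aligned reads to mm10, removed duplicates with regard to cell barcodes, corrected Tn5 cut sites, called narrow peaks per library with MACS2 and left out blacklisted regions. The aligner is not given in the sources used here. The deposited score of a peak is its −log10 q times 10, and the deposited fold enrichment (a ratio) and −log10 p and −log10 q values compare the summit with the local background of the same library. The other deposited columns give position and summit.

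Fragments at the summit were recovered from the fold enrichment and −log10 p for 99.2% to 99.9% of peaks per list. Peaks on chromosomes 1 to 19 were annotated with GENCODE vM21 and read from the RefSeq sequence of GRCm38.p6 with Python 3.11.15, pysam 0.24.0, numpy 2.4.6, pandas 2.3.3 and scipy 1.17.1, and figures were drawn with matplotlib 3.10.9. Repeats are the bases masked in that sequence. Shares have Wilson and differences Newcombe intervals at 95%, at 99.7% where divided over 18 sequences. Overlap meant 1 shared base. Fragment recovery, peak overlap, edge distance to a TSS, box class and position, and coverage of the Newcombe interval were tested on simulated data. The other steps were not. Genes named are list genes with a MEF2-only peak within 100 kb, the 10 genes with most regions, the 5 highest peaks per long list and the 5 highest regions, little masked, in a short list; *Ptprc*, *Mfhas1*, *Lmna*, *Ralgapb*, the list genes without such a peak and the whole windows were added after values were seen. Members and lists were chosen with earlier results of these data known. No sample was left out, and the short lists entered no comparison. Some items are not reported here.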

Additional observations from a re-analysis of the deposited data

How the results depend on the processing

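Of 282 recomputed values, 205 counted as unchanged, 70 moved, 4 lost and 2 gained an interval that leaves out 0, and 1 reversed. A difference counted as unchanged when its interval still held 0 or still left it out on the same side, whatever its size. Shares and medians did when they stayed within the main interval, and counts when they stayed within a fixed factor. The control female overlap difference, 1.45 points, thus counted as unchanged at −0.0938 and −0.875 with −log10 q of at least 5 and 10. Causes were not tested. Pairs give the control female first. Box position stayed above the swapped box in all 12 alternatives of each list (7.50 to 26.4 and 15.4 to 32.7 points), but a 200-bp window gave 7.50 (−2.04 to 17.0) in the control female list. The intron share stayed higher in all 13 (3.88 to 12 and 3.38 to 7.41 points), with intervals that held 0 for C and G ends only (5.67, control female) and against the swapped box (5.35, VEDS male).

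The overlap difference reversed in the VEDS male list at −log10 q of at least 10 (−2.47), where the threshold also shortened the other list, and was 4.24 against the swapped box. In the control female list it left out 0 beyond 10 kb (3.34) and for 50% reciprocal overlap (3.84). The overlap itself was 95.9% and 38.7% at −log10 q of at least 5, 96.7% and 20.2% at 10, 67.9% and 73.9% with the VEDS male list shortened to the length of the other, 66.2% and 31.2% for reciprocal overlap, 94.8% beyond 10 kb (control female) and 46.3% with C and G ends (VEDS male).

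MEF2-only peaks numbered 152 and 699 at −log10 q of at least 10, 643 in the shortened VEDS male list, 291 and 587 with C and G ends, 1338 and 2842 with the 8 central letters only, and 250 and 561 when a TPA response element with 1 mismatch was also excluded. Their share was 6.61% and 7.46% at −log10 q of at least 10, 7.44% at 5 (VEDS male), 7.58% in the shortened list, 6.31% and 5.52% in 200-bp and 10.2% and 9.14% in 500-bp windows, 3.25% and 2.71% with C and G ends, 14.9% and 13.1% with the central letters, 2.79% and 2.59% with the mismatch excluded, 9.36% and 8.14% with no exclusion, and in the VEDS male list 7.40% beyond 10 kb and 7.32% in windows at most 50% masked.

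Median widths were 252 and 303 bp at −log10 q of at least 5, 320 and 368 bp at 10, 379 bp in the shortened list and 210 bp with C and G ends (control female), and median fragments 13 and 21, 18 and 28, and 29 in the shortened list. At contractile genes the share was 4.76% at −log10 q of at least 10 (control female), 1.59% and 2.90% with the mismatch excluded, and 3.62% with C and G ends and 15.9% with the central letters (VEDS male). Gene lists whose interval left out 0, always upward among those with at least 20 distal peaks, were 2 in 200-bp windows (control female), 3 and 2 with C and G ends, 1 and 3 with the central letters, 1 and 2 with no exclusion, 1 each by the nearest TSS of any gene type, 1 with protein-coding TSSs (VEDS male) and 2 when shorter lists were included (control female). They included known MEF2 targets under 3 (control female) and 4 settings (VEDS male), MEF2 and SRF regulators under 3 in each, contractile and channel genes with C and G ends (control female), and the loci named by the study with the central letters and with protein-coding TSSs (VEDS male). No allowance was made for the number of lists or settings, and some lists share genes. Co-occurring sequences that differed from swapped-box windows were 1 with the central letters (SMAD palindrome, control female), and 1 in 500-bp windows (NFI) and 1 in windows at most 50% masked (SOX) in the VEDS male list, and 3 differed against neither sequence. At most 50% masked, 1 control male and 7 VEDS female peaks met the rule.

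No paired analysis was possible because each group has 1 library and the labels give no replicate numbers. The comparisons of overlap and intron share with the swapped box, that of co-occurring sequences with neither sequence, and the limit of 20 distal peaks were added after seeing the data. With 5 to 40 and 7 to 97 fragments at a summit, a peak near the calling threshold may be missed in 1 list.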

Other observations

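The bases next to the box were not those of the surrounding genome. With each box read 5′ to 3′ on each strand, the base just before it was G in 30.7% of 1544 flanks in the control female list and 31.0% of 3178 in the VEDS male list, against 20.6% of flanks of boxes in the unmasked sequence of chromosome 1. A was found at that position in 19.4% and 18.5%, against 28.3%. G was also more frequent 2 and 3 bases before the box, at 27.1% and 25.9% against 20%, and at 27.8% and 28.1% against 19.4%. These shares are descriptions without a test, and the GC content of the windows was not matched to that of the chromosome.

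Where a window held more than 1 MEF2 box, the starts of neighboring boxes were a median of 50 bp apart over 59 pairs in the control female list and 52 bp over 92 pairs in the VEDS male list. Of these pairs, 3 and 5 overlapped. The *Gadd45b* window shown above holds a pair that does not overlap, CTAAATATAG and CTATTTTTAG, near the edge of the window.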
